A study of Homo sapiens with 3 samples.

Results

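GAPDH, ALDOA and ENO1 encode 3 enzymes of glycolysis and are 3 of the 5932 genes that the deposited table of the series lists. They were taken by symbol from both blocks of that table, where they fill 7 entries, called regions here: 2 for GAPDH, 2 for ALDOA and 3 for ENO1. They were selected on their RPM and fragments in all 3 libraries, so those values describe the genes and test nothing. The cells were 95D, an established human lung cancer line of wild-type genotype. The libraries came from a glucose-deficient culture, a glutamine-deficient culture and a control culture, each kept for 48 h and each sequenced as 1 library. Both deprived media contained dialyzed serum, which is not stated for the control medium. The protocols describe the same capture for every library: RNA from cell lysate was pulled down with DAMER, a long non-coding RNA made in vitro at full length and biotinylated. The sample titles name plain RNA sequencing instead, so the labels do not settle whether the control is a pulldown. No condition has a replicate, and no difference below has a replicate check or a p-value.

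GAPDH oxidises glyceraldehyde 3-phosphate and makes the NADH that lactate dehydrogenase later spends. ALDOA is the aldolase that splits fructose 1,6-bisphosphate upstream of GAPDH, and ENO1 is the enolase that makes phosphoenolpyruvate downstream of it. All of them are abundant mRNAs in proliferating tumour cells, and GAPDH is a common reference gene for RNA measurements.

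In GENCODE release 29 (GRCh38), GAPDH (ENSG00000111640) lies on the plus strand at chr12:6533927-6538374, ALDOA (ENSG00000149925) on the plus strand at chr16:30064164-30070457, and ENO1 (ENSG00000074800) on the minus strand at chr1:8861000-8879250. The table gives regions no coordinates, so which exons they cover is not known. Each of these genes also has processed pseudogenes, intronless copies of its mRNA, and 4 of them are listed. The stretches of 60 bases below show how alike gene and copy are. Capitals mark bases that differ, and each stretch is the first in the coding sequence with the median number of differences for its pair. They are transcript sequences of GENCODE release 29, at bases 1 to 60 of the GAPDH, 98 to 157 of the ALDOA and 168 to 227 of the ENO1 coding sequence.
GAPDH: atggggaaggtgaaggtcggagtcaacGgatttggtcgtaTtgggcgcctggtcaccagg
GAPDHP1: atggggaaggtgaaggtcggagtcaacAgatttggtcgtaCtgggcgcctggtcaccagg
ALDOA: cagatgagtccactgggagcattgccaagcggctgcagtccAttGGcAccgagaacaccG
ALDOAP2: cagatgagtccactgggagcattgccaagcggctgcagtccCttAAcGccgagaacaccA
ENO1: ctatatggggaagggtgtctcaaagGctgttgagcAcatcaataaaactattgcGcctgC
ENO1P1: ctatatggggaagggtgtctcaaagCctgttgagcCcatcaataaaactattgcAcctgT

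The GAPDH pair differs at 2 bases of its stretch, the ALDOA pair at 5 and the ENO1 pair at 4. Over the aligned length, identity was 95.9% between GAPDHP1 and GAPDH, 94.7% between GAPDHP65 and GAPDH, 89.4% between ALDOAP2 and ALDOA, and 93.2% between ENO1P1 and ENO1. The longest run without a difference was 95 bases, in ENO1P1, and 0 windows of 150 bases were identical in any pair. A single read of that length would therefore meet at least 1 difference within the aligned part. How reads that match more than 1 place were counted is stated in none of the sources at hand, so the split between gene and copy is uncertain.

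One ENO1 region carries the same values as MIR6728, a microRNA gene of 89 bases at chr1:8866502-8866590 on the minus strand. It lies in an ENO1 intron and abuts exon 7 of transcript ENST00000646539.1 (chr1:8866279-8866501). Its sequences, from RefSeq (GRCh38.p14), show what shares that region. In the mature forms the seed, bases 2 to 8, is in capitals.
MIR6728 hairpin: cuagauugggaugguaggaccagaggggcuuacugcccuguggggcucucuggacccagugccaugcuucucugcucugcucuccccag
hsa-miR-6728-5p: uUGGGAUGguaggaccagagggg
hsa-miR-6728-3p: uCUCUGCUcugcucuccccag

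The deposited unit is RPM, in which reads are divided by the library total. Values moved in fixed steps, from which fragments (taken as sequenced read pairs) were recovered to the nearest 0.5. In the control 63.3% of values were whole, and what a count ending in 0.5 stands for is not known. The control total and its counting intervals rest on the step chosen. Totals were 18775814 fragments in the glucose-deficient, 18301607 in the glutamine-deficient and 3781863 in the control library. ATF4, a transcription factor of the integrated stress response, held 998517 RPM under glucose deprivation and 998557 RPM under glutamine deprivation, against 237 RPM in the control library. Outside the listed entries of ATF4 and its pseudogenes there were 12936 fragments (0.0689%) under glucose deprivation and 14450 (0.0790%) under glutamine deprivation. A count of 0 allows up to 0.160 RPM under glucose deprivation, 0.164 RPM under glutamine deprivation and 0.793 RPM in the control library, a floor of 3 fragments each. Every region carries an added 0.5 fragment, so a region with 0 fragments is listed at 0.0266, 0.0273 or 0.132 RPM in the same order of libraries. All intervals are at 95% and cover counting error only, since PCR copies are not independent molecules. Of the epithelial markers, 1 of 6 was listed, KRT8 at 6.48 RPM in the control, so these tables say little about the labelled cell type. VIM was the 1 listed mesenchymal marker of 3 (77.7 RPM in the control) and CSF1R the 1 listed leukocyte marker of 4 (10.3 RPM). Each of these markers had 0 fragments in both deprived libraries, and 0 of the fibroblast, endothelial and erythroid markers were listed.

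GAPDH was the most abundant of the 3 enzymes in the control and was close to 0 in both deprived libraries. Its level was 0.373 RPM under glucose deprivation and 0.0546 RPM under glutamine deprivation, against 192 RPM in the control. These are 6 fragments (2.20 to 13.1, exact Poisson interval) under glucose deprivation and 0 under glutamine deprivation, against 723.5 fragments (672 to 778) in the control. The glutamine-deficient value is the added offset alone, and the control stands far above both. In bulk lysate, fewer cells of a kind, less RNA per cell and less RNA captured cannot be told apart, and none was tested. The reads of ATF4 count in each library total, so the ratios below are relative to them. Fragments of GAPDH per library total were 599-fold lower under glucose deprivation than in the control (274 to 1637, exact conditional binomial interval). Under glutamine deprivation GAPDH was 1167-fold lower when set at the floor of 3 fragments, and the interval that also counts the control's error begins at 947-fold. On the scale of log2(RPM + 1), which understates differences of low values, the ratios to the control were −7.13 under glucose deprivation and −7.51 under glutamine deprivation.

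ALDOA was listed at 0.0533 RPM under glucose deprivation and 0.109 RPM under glutamine deprivation, against 107 RPM in the control. It had 0 fragments under glucose deprivation and 1 (0.0253 to 5.57) under glutamine deprivation, against 403.5 (365 to 445) in the control. Under glucose deprivation it was 668-fold lower when set at the floor, with the interval beginning at 541-fold. Under glutamine deprivation it was 1953-fold lower, an estimate from 1 fragment whose interval runs from 348 to 77315. These folds cannot be ranked, since only a count of 0 is set at the floor. The log2(RPM + 1) ratios to the control were −6.68 under glucose deprivation and −6.60 under glutamine deprivation.

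ENO1 had no fragment in either deprived library. Its 0.0799 RPM under glucose deprivation and 0.0820 RPM under glutamine deprivation are the offset of 3 regions, against 105.5 RPM and 397.5 fragments (359 to 439) in the control. Set at the floor, it was 658-fold lower under glucose deprivation and 641-fold lower under glutamine deprivation. The intervals begin at 532.5-fold and 519-fold in that order. The log2(RPM + 1) ratio to the control was −6.62 in both.

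The control order was GAPDH, ALDOA, ENO1. The counting interval of GAPDH lies above the other two, while those of ALDOA and ENO1 overlap, so these neighbours are not separated beyond counting error. Per kilobase of annotated exon the control levels were 64.3 RPM for GAPDH, 27.3 RPM for ALDOA and 20.0 RPM for ENO1. On that per-length scale they ranked 307, 681 and 918 of 5796 genes. In the deprived libraries their Poisson intervals all overlap, and no order can be read.

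**Figure D1:**
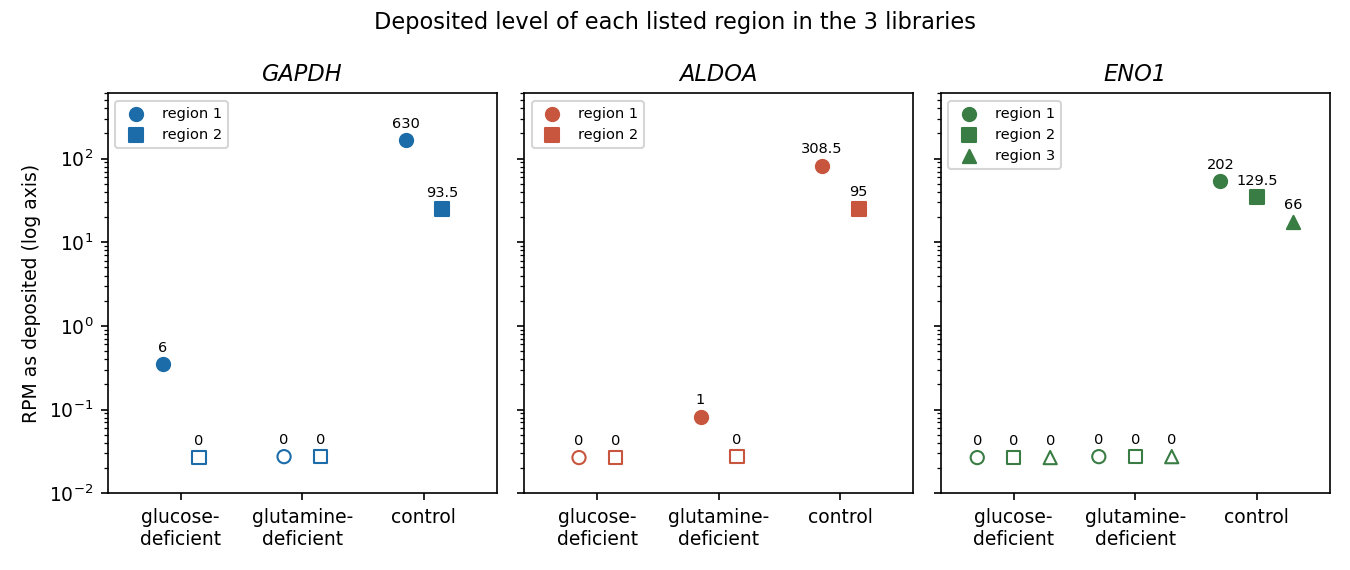
Level of each listed region of GAPDH (2 regions), ALDOA (2) and ENO1 (3) in the glucose-deficient, glutamine-deficient and control libraries, in RPM on a log axis, with recovered fragments printed above each point. Open symbols have 0 fragments and show the offset alone; 1 deprived point of GAPDH (6 fragments) and 1 of ALDOA (1 fragment) are filled, and every control region has 66 fragments or more.

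The regions of a gene were unequal in the control. GAPDH region 1 held 87.1% of the gene's control fragments, and all 6 of its fragments under glucose deprivation. It stood at 0.346 RPM under glucose deprivation and 0.0273 RPM under glutamine deprivation, against 166.7 RPM (630 fragments) in the control. GAPDH region 2 had 0 fragments in both deprived libraries, against 24.9 RPM (93.5 fragments) in the control. Region 1 alone thus carried what remained of GAPDH, which is also the region with most control fragments.

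That region has the same values as the single entry of AC006064.4, an antisense gene on the minus strand at chr12:6537794-6538370. AC006064.4 overlaps GAPDH exon 8 (chr12:6537584-6537996) and exon 9 (chr12:6538101-6538371) of transcript ENST00000229239.9. Whether counting used strand is stated in none of the sources at hand, so reads of GAPDH and of its antisense gene cannot be told apart there.

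ALDOA region 1 held 76.5% of the gene's control fragments and its 1 fragment under glutamine deprivation. It stood at 0.0266 RPM under glucose deprivation and 0.0820 RPM under glutamine deprivation, against 81.7 RPM (308.5 fragments) in the control. ALDOA region 2 had 0 fragments in both deprived libraries, against 25.3 RPM (95 fragments) in the control. Both regions are also listed, with the same values, under AC093512.2, a protein-coding gene on the same strand at chr16:30053090-30070420. Since it spans nearly all of ALDOA, these reads cannot be assigned to either gene.

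ENO1 was the most evenly spread. Its regions had 53.5, 34.4 and 17.6 RPM in the control (202, 129.5 and 66 fragments), or 50.8%, 32.6% and 16.6% of the gene. Each had 0 fragments in both deprived libraries. The second of them is the region listed also under MIR6728, whose hairpin is printed above. The highest and the lowest carry no other gene's name.

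The listed pseudogenes were not detected in either deprived library, at 0 fragments each. GAPDHP1 (chrX:39787132-39788136, minus strand) stood at 0.0533 RPM under glucose deprivation and 0.0546 RPM under glutamine deprivation, against 54.6 RPM (205.5 fragments, 178 to 236) in the control. ENO1P1 (chr1:236483165-236484468, plus strand) had 53.9 RPM (203 fragments, 176 to 233) in the control, a region pair also listed under EDARADD. ALDOAP2 (chr10:125666875-125667950) had 19.3 RPM (72.5 fragments) in an entry also listed under TEX36, and GAPDHP65 (chrX:46439709-46440714) had 9.12 RPM (34 fragments). Set against the control fragments of their parent genes, these are 28.4% for GAPDHP1, 51.1% for ENO1P1, 18.0% for ALDOAP2 and 4.70% for GAPDHP65. The log2(RPM + 1) ratios to the control were −5.72 for GAPDHP1 in each deprived library, and −3.30 for GAPDHP65. They were −5.71 and −5.70 for ENO1P1 and −4.31 and −4.30 for ALDOAP2, glucose deprivation first in each case. GENCODE annotates 62 GAPDH pseudogenes, of which 2 are listed, 2 of ALDOA and 4 of ENO1, of which 1 each is listed. None of the annotated paralogs (1 of GAPDH, 2 of ALDOA and 3 of ENO1) is among the listed genes.

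Being lower than the control was nearly universal among listed genes. On the log2(RPM + 1) scale, 99.9% of 5931 genes tested were at least 2-fold lower under glucose deprivation and 0.118% at least 2-fold higher. Under glutamine deprivation 99.9% of 5928 were lower and 0.0675% higher. A gene was tested at 1 RPM or more in either library. All 3 enzymes were among the lower genes in both, which at that background says nothing particular about them. The median log2(RPM + 1) ratio over all genes tested was −3.92 under glucose deprivation and −3.93 under glutamine deprivation. Every lower entry had at least 9.5 control fragments, and how entries were chosen for the table is not given. Both comparisons share the control library, so they are not independent of each other.

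With 0 fragments in one library, a log2 ratio mostly restates the control level. The fragments themselves give a second view. Under glucose deprivation 90.9% of genes tested had 0 fragments, ALDOA and ENO1 among them, and under glutamine deprivation 99.2%, GAPDH and ENO1 among them. GAPDH was 1 of 528 lower genes with at least 1 fragment under glucose deprivation (8.91% of the lower genes). It was 1 of 24 with at least 6 (0.405%). All these shares count genes that share an entry separately, and AC006064.4 is among the 24 with the same 6 fragments. ALDOA was 1 of 42 lower genes with at least 1 fragment under glutamine deprivation (0.709%). Among the 212 genes whose control fragments lay between those of ENO1 and GAPDH, both included, 79 (37.3%) had a fragment under glucose deprivation and 2 (0.943%) had 6 or more. These 2 are GAPDH and AC006064.4, which is listed with the values of GAPDH region 1, so they are the same 6 fragments. GAPDH sets the upper end of this range, so genes with more control fragments are left out. Under glutamine deprivation 5 of the 212 (2.36%) had a fragment, among them ALDOA and AC093512.2, whose listed regions are the same.

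**Figure D2:**
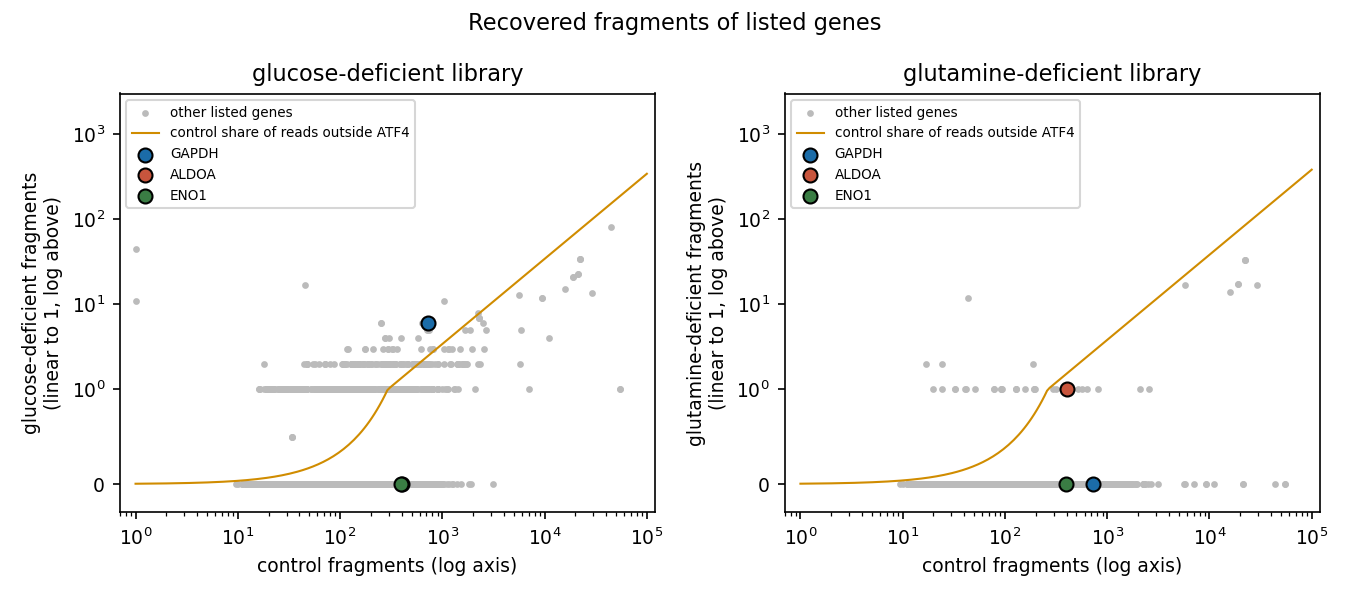
Fragments in the glucose-deficient (left) and glutamine-deficient (right) library against control fragments, both on log axes (the vertical axis is linear up to 1), 1 point per listed gene with control fragments; ATF4, its pseudogenes and a gene sharing an entry with one are left out. The line is the number of fragments at the control's share of reads outside ATF4 and its pseudogenes; GAPDH (6 fragments against 723.5) lies above it on the left, while ALDOA and ENO1 lie below it in both panels and GAPDH on the right.

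Because ATF4 filled the deprived libraries, each enzyme was also set against the reads outside ATF4 and its pseudogenes. Of these reads, listed entries of at least 9.5 control fragments held 918.5 of 12936 under glucose deprivation and 133.5 of 14450 under glutamine deprivation. In the control they held 856478 of 3780905 by the glucose block. The origin of the rest is not known, and every expected count below includes it in the total. At its control share of all reads outside ATF4 and its pseudogenes GAPDH would have had 2.48 fragments under glucose deprivation, where 6 were found, a ratio of 2.42 (0.887 to 5.30). Under glutamine deprivation it would have had 2.77, where 0 were found, with an upper bound of 1.34 on the ratio. The interval includes 1 in both, so on this scale neither a higher nor a lower GAPDH was detectable at this depth.

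ALDOA would have had 1.38 fragments under glucose deprivation, where 0 were found (upper bound 2.68), and 1.54 under glutamine deprivation, where 1 was found (ratio 0.648, 0.0164 to 3.63). ENO1 would have had 1.36 and 1.52, where 0 were found in each, with upper bounds of 2.73 under glucose deprivation and 2.44 under glutamine deprivation. Summed, the 3 enzymes had 6 fragments where 5.22 would stand under glucose deprivation, and 1 (0.0253 to 5.57) where 5.83 would stand under glutamine deprivation. The second sum lies below that share by its counting interval, but the 3 genes were summed with their values known, so this is a description. Together, all listed entries outside ATF4 and its pseudogenes also lay below their share there, with 133.5 fragments where 3275 would stand.

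A difference on this scale is hard to see for genes of this level. With 0 fragments, a gene needs 2158.5 control fragments under glucose deprivation, or 1932.5 under glutamine deprivation, for its whole interval to lie 2-fold lower or more. GAPDH had 723.5. By that rule 0.185% of genes tested were higher and 0.202% lower under glucose deprivation, and 0.118% higher and 0.422% lower under glutamine deprivation. None of the 3 enzymes was called in either direction.

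**Figure D3:**
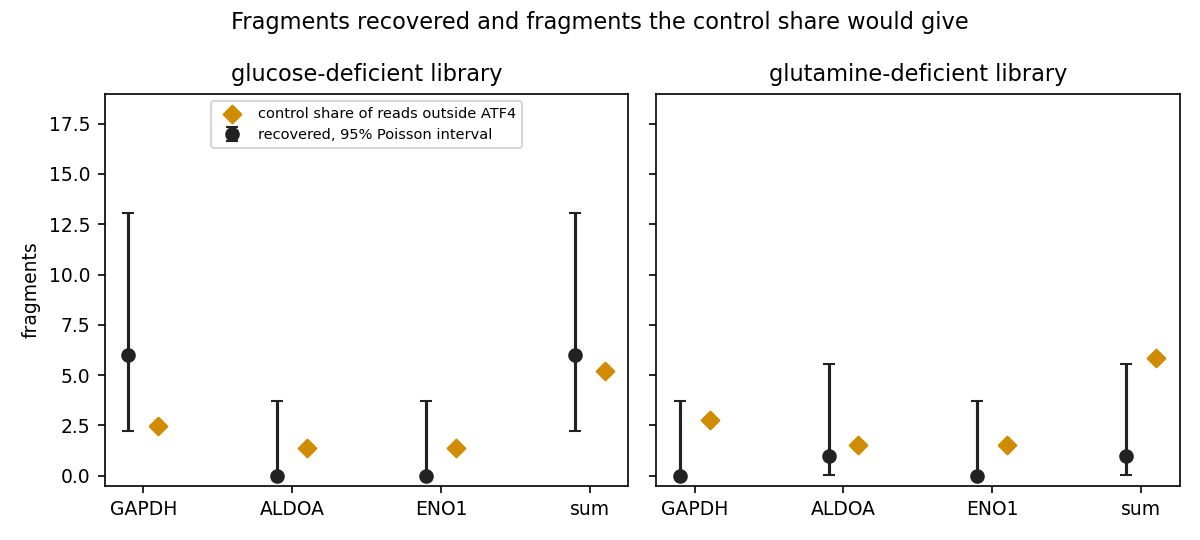
Recovered fragments (circles, with 95% exact Poisson intervals) of GAPDH, ALDOA, ENO1 and their sum in the glucose-deficient (left) and glutamine-deficient (right) library. Diamonds are the fragments that the control's share of reads outside ATF4 and its pseudogenes would give; on the left 6 GAPDH fragments stand beside 2.48, and on the right the sum of 1 stands beside 5.83, just above its interval.

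Per 1000 control fragments, GAPDH kept 8.29 fragments (3.04 to 18.1) under glucose deprivation. The 3 enzymes together kept 3.94 (1.44 to 8.57) there and 0.656 (0.0166 to 3.65) under glutamine deprivation. These rates compare raw fragments and are not scaled to the library totals, which were larger in the deprived libraries. Scaled to the totals, the ratio of GAPDH under glucose deprivation to the control was 0.00167. The intervals of the rates cover the deprived count alone. All listed entries outside ATF4 and its pseudogenes, of at least 9.5 control fragments, kept 1.07 (1.00 to 1.14) under glucose deprivation and 0.156 (0.130 to 0.185) under glutamine deprivation. At the control's share of reads outside ATF4 those entries would have had 2930 fragments under glucose deprivation, where 918.5 were recovered, and 3275 under glutamine deprivation, where 133.5 were recovered. Without mitochondrial genes the kept fragments were 1.09 (1.02 to 1.17) and 0.0448 (0.0310 to 0.0625). The interval of the enzymes' sum lies above that of the listed entries under glucose deprivation through GAPDH alone, whose 6 fragments are all of the sum's. GAPDH was chosen with this count in view, so the difference is a description. ALDOA and ENO1, with 0 fragments, allow up to 9.14 and 9.28 there.

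Between the deprived libraries, GAPDH had 6 fragments under glucose deprivation and 0 under glutamine deprivation. The lower bound on the ratio of fragments per library total was 1.15. The difference on the log2(RPM + 1) scale was 0.38, and its interval from the Poisson bounds of both counts, −0.10 to 0.73, includes 0. All listed entries outside ATF4 and its pseudogenes went the same way, with 918.5 fragments under glucose and 133.5 under glutamine deprivation. GAPDH was also chosen with its counts known, so this difference is a description. ALDOA had 0 fragments under glucose deprivation and 1 under glutamine deprivation, with an interval of the ratio from 0 to 38.0 and a log2 difference of −0.07. ENO1 had 0 in both, and no ratio is given. None of the 3 reached 1 RPM in either deprived library, which 16 genes did, so none was tested in this comparison.

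The direction of the enzymes that have fragments depends on what the libraries are scaled to. With TMM scaling of the recovered fragments, the log2 ratio of GAPDH under glucose deprivation to the control was 0.26, and with median-of-ratios scaling 1.19, past 2-fold higher. With totals outside ATF4 and its pseudogenes it was 0.90. These scalings move the median over all genes to −0.19, −0.09 and −0.14 in that order, so GAPDH stood 0.45, 1.28 and 1.04 above it. Under glucose deprivation TMM put 4.79% of genes tested at least 2-fold lower, ALDOA (−1.10) and ENO1 (−1.09) among them, and 0.169% higher. Median of ratios put 0.927% lower and 0.607% higher, GAPDH among the higher, and totals outside ATF4 put 2.48% lower and 0.455% higher, with no member in either class. With 0 fragments the ratio is below 0 under any scaling, and its value reflects only the scaled control level and the pseudocount. That is the case for ALDOA and ENO1 under glucose deprivation (−1.10 to −0.64) and for GAPDH and ENO1 under glutamine deprivation (−1.61 to −0.64). The scaled control levels are low, 2.04 RPM for GAPDH with TMM and 1.03 RPM with median of ratios, so the pseudocount of 1 RPM weighs on every ratio. Under glutamine deprivation ALDOA, with its 1 fragment, turned to 0.14 with median-of-ratios scaling. In that library 6.51% of genes tested were at least 2-fold lower with TMM, GAPDH and ENO1 among them. With median of ratios 2.11% were lower and with totals outside ATF4 4.25%, and in both GAPDH was the 1 member among them. The share higher was 0.118% under each of these scalings. Median of ratios rests on the 23 of 5928 genes with a fragment in all 3 libraries.

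**Figure D4:**
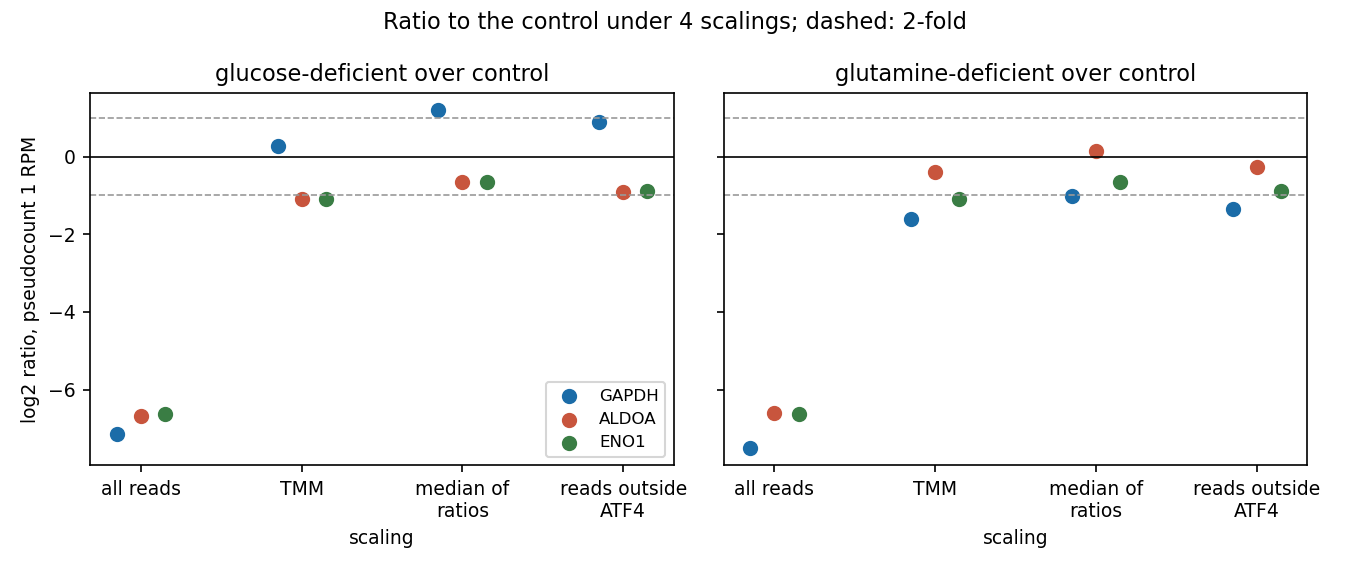
Log2 ratio to the control, with a pseudocount of 1 RPM, of GAPDH, ALDOA and ENO1 in the glucose-deficient (left) and glutamine-deficient (right) library under 4 scalings. By all reads every point lies at −6.60 or lower; under the other 3 scalings GAPDH lies above 0 on the left (0.26 to 1.19) and, with 0 fragments, below 0 on the right (−1.61 to −1.02), and the dashed lines mark 2-fold.

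The rest of the pathway was described from a list of 22 glycolysis genes, of which 12 were listed and tested. All 12 were at least 2-fold lower in both comparisons, against 99.9% of all genes in each. Their median log2(RPM + 1) ratio was −5.78 in each comparison. With genes at 0 fragments set to the floor, the median log2 ratio of fragments was −8.55 under glucose deprivation and −8.52 under glutamine deprivation, against −6.58 and −6.48 over all genes tested. Since most genes sit at the floor, these medians mostly reflect the control level, and no larger fall can be read from them. Under glucose deprivation 9 of the 12 had 0 fragments, and under glutamine deprivation 11.

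Of the upper steps, HK1 and HK2, the hexokinases that trap glucose in the cell, had 0 fragments in both deprived libraries, against 14.7 and 26.3 RPM in the control. GPI, the isomerase of glucose 6-phosphate, had 2 fragments under glucose deprivation and 0 under glutamine deprivation, against 353.5 (94.4 RPM) in the control. TPI1, which interconverts the triose phosphates made by ALDOA, had 0 in both, against 27.4 RPM in the control. The genes of phosphofructokinase (PFKL, PFKM and PFKP) are not among the listed genes.

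Of the lower steps, PGK1, the kinase that follows GAPDH, had 1 fragment under glucose deprivation and 0 under glutamine deprivation, against 25.5 (6.87 RPM) in the control. PGAM1, the mutase before ENO1, had 0 in both, against 7.14 RPM. PKM, the pyruvate kinase after ENO1, had 0 in both, against 67.2 RPM. The lactate dehydrogenase genes LDHA and LDHB had 0 in both, against 63.7 and 57.8 RPM. GAPDH, GPI and PGK1 were thus the 3 glycolysis genes with fragments under glucose deprivation, and ALDOA the 1 under glutamine deprivation.

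Together the 12 genes had 9 fragments under glucose deprivation and 1 under glutamine deprivation. Per 1000 control fragments, with no scaling to library totals, the 12 genes kept 3.11 (1.42 to 5.91) and 0.346 (0.00875 to 1.93). Their control share of reads outside ATF4 and its pseudogenes would give 9.90 and 11.1 fragments in that order. GAPDH, ALDOA and ENO1 were the 3 highest of the 12 in the control, both in RPM and per kilobase of exon. Next per kilobase came LDHB (19.4 RPM), LDHA (10.3), TPI1 (10.1), GPI (8.84), PKM (7.84), HK2 (4.34), PGAM1 (2.78), HK1 (2.33) and PGK1 (1.25). The order per kilobase also depends on how much of each gene was listed.

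**Figure D5:**
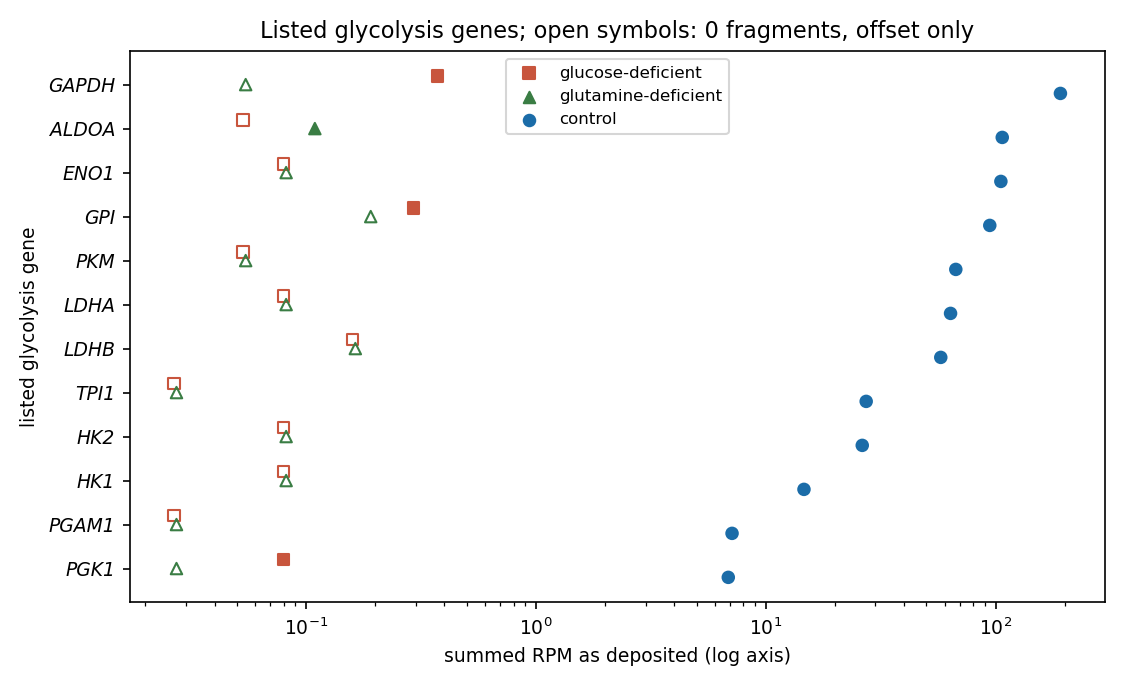
Summed RPM (log axis) of the 12 listed glycolysis genes, ordered by control level, in the glucose-deficient (squares), glutamine-deficient (triangles) and control (circles) libraries; open symbols have 0 fragments and show the offset of their regions alone. GAPDH (6 fragments), GPI (2) and PGK1 (1) are filled under glucose deprivation and ALDOA (1) under glutamine deprivation, while control levels run from 6.87 to 192 RPM.

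GAPDH was also set beside other genes used as expression references. Of 15 such genes 12 were listed and all 12 were lower in both comparisons, with a median log2(RPM + 1) ratio of −4.73 in each, where 99.9% of all genes tested were lower. ACTB, the cytoskeletal actin, had 726.5 control fragments (193 RPM), close to the 723.5 of GAPDH. Under glucose deprivation ACTB had 1 fragment and GAPDH, which was chosen with its count known, had 6. The Poisson intervals of these counts overlap (0.0253 to 5.57 for 1 fragment, 2.20 to 13.1 for 6). TUBB, a tubulin, had 0 under glucose deprivation, against 160.5 RPM in the control. Together the 12 reference genes had 3 fragments under glucose deprivation, and 9 of them had 0. Their control share of reads outside ATF4 and its pseudogenes would give 10.9. All 12 had 0 fragments under glutamine deprivation, as did GAPDH and 99.2% of all genes tested.

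The genes nearest to each enzyme over the 3 libraries were taken among 5928 genes by Euclidean distance of log2(RPM + 1). For GAPDH they were RPS4X, a ribosomal protein gene (distance 0.0827), BRD2, a bromodomain gene (0.165), and ATXN2L (0.186). RPS4X had 5 fragments under glucose deprivation and 0 under glutamine deprivation, against 197 RPM in the control. BRD2 had 3 and ATXN2L 2 fragments under glucose deprivation, and neither had any under glutamine deprivation. For ALDOA the nearest were AC093512.2, which lists the same regions (distance 0), ENO1 (0.0545) and the readthrough gene RPL36A-HNRNPH2 (0.0742). For ENO1 they were HNRNPH2, an RNA-binding protein gene (0.0516), RPL36A-HNRNPH2 (0.0518) and ALDOA (0.0545). All of them stood under 1 RPM in both deprived libraries, where the offset of each region enters the distance.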

How the data were processed

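RNA of 3 libraries was measured. Per the file headers, the unit of all deposited values is RPM. Per the submitters' processing notes, alignment used HISAT2 2.0.5 and hg38. Region calling, the choice of entries, annotation and strand: not given in the sources used here. One label is at fault, since the glutamine-deficient sample cites the glucose column. Its single-sample file held the same values as the glutamine column, and that match was used. Of per-sample columns, 0 were unused.

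The deposited table has 14338 entries in the glucose and 14333 in the glutamine block, naming 5932 and 5928 genes, and a gene's value is the sum of its entries. RPM divided by the step (0.0533, 0.0546 and 0.264 RPM in the glucose-deficient, glutamine-deficient and control library), less 0.5, gave fragments to the nearest 0.5. Values under 1000 RPM lay within 0.00324 fragment of such a number. Of values, 99.96% of glucose-deficient, 99.97% of glutamine-deficient and 63.3% of control were whole. With 1 library per condition, count tests across samples have no residual spread and were not run. The ratio is log2(RPM + 1), tested at 1 RPM or more in either library, with a call at 2-fold. The design assumed no other unit.

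The members, lists and alternatives were chosen with earlier results of these data known. Named genes are the members, listed glycolysis genes, members of other lists with a fragment in a deprived library or among the 3 highest in the control, listed pseudogenes, the 3 nearest genes of each member, and ATF4. Genes sharing an entry with a member or its pseudogene, and the markers, are named outside this rule. One gene that the rule names is not reported here. Shared entries were matched by equal values and overlapping annotation. R 4.3.3 ran TMM in edgeR 4.0.16, while size factors came from DESeq2 1.42.0. Other steps used scipy 1.17.1, numpy 2.4.6 and pandas 2.3.3 in Python 3.11.15, with matplotlib 3.10.9 for plots. On simulated data for glucose-deficient over control (14338 entries, 200 changed 4-fold), 100% of higher and 100% of lower entries were recovered. At 2.5-fold, 98% of lower entries were recovered. No RNA filled the simulated deprived library as ATF4 did the real one. The simulation therefore does not show recovery at the few fragments found here.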

Additional observations from a re-analysis of the deposited data

How the results depend on the processing

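In all, 94 values were recomputed under other settings: 40 stayed within their counting interval (counts within 1.5 times), 50 moved and 4 turned direction. Members are given in the order GAPDH, ALDOA, ENO1, as log2 ratios to the control. With a pseudocount of 0.1 RPM they were −8.66, −9.45 and −9.20 in the glucose-deficient and −10.28, −9.00 and −9.18 in the glutamine-deficient library, and with 5 RPM −5.19, −4.47 and −4.44, and −5.28, −4.45 and −4.44. Without the offset and with 0 at the floor they were −9.23, −9.38 and −9.36, and −10.19, −10.93 and −9.32. Only counts of 0 were raised to the floor, so ALDOA stands lower with 1 fragment (−10.93) than with 0 (−9.38). The order of these values therefore does not follow the counts. With TMM scaling they were 0.26, −1.10 and −1.09, and −1.61, −0.40 and −1.09. With median-of-ratios scaling they were 1.19, −0.65 and −0.64, and −1.02, 0.14 and −0.64. With totals without ATF4 and its pseudogenes they were 0.90, −0.90 and −0.89, and −1.36, −0.26 and −0.89. Under these scalings the median over all genes was −0.19, −0.09 and −0.14 in the glucose-deficient comparison, and −0.21, −0.11 and −0.16 in the glutamine-deficient comparison. There the control level of GAPDH is 1.03 to 2.04 RPM, so with most genes at 0 fragments the pseudocount of 1 RPM holds ratios near 0. The largest region alone gave −5.73 for ENO1 in both. Between the deprived libraries GAPDH went to 1.61 (pseudocount 0.1 RPM), 0.96 (no offset), 1.87 (TMM), 2.21 (median of ratios) and 2.26 (totals without ATF4), and ALDOA to −0.45, −0.69, −0.80 and −0.65 with the same settings other than no offset, where both libraries are under the floor. Of the 12 glycolysis genes, TMM left 2 lower in each comparison (4.79% and 6.51% of all genes, glucose-deficient first). Median of ratios left 1 higher (GAPDH; 0.607% of all genes) and 0 lower (0.927%) in the glucose-deficient, and 1 lower (2.11%) in the glutamine-deficient comparison. Totals without ATF4 left 0 lower (2.48%) in the glucose-deficient and 1 lower (4.25%) in the glutamine-deficient comparison. No paired analysis was possible because each condition has 1 library, and leaving out a replicate could not be run for the same reason. Depth limits the deprived values: 0 to 6 fragments per enzyme.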

Other observations

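Other routes of glucose carbon had 0 to 2 fragments per list in each deprived library. Of 20 genes of glucose and lactate transport and its regulation, 8 were listed. All 8 had 0 fragments in both deprived libraries, as had 90.9% of all genes tested under glucose and 99.2% under glutamine deprivation. They were at least 2-fold lower in each (99.9% of all genes tested), with a median log2(RPM + 1) ratio of −4.26 in each. The 3 highest in the control were MYC, a transcription factor that raises glycolytic genes (149.8 RPM), SLC16A1, a lactate transporter (63.1 RPM), and HIF1A, the hypoxia factor (46.4 RPM). Of 8 pentose phosphate genes 5 were listed, with a median of −4.10 in each. TKT, the transketolase, had 2 fragments under glucose deprivation and 0 under glutamine deprivation, against 141 (37.7 RPM) in the control. PGD and TALDO1, a dehydrogenase and a transaldolase of that pathway, had 0 in both, against 17.2 and 17.1 RPM.

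Of 25 genes of pyruvate dehydrogenase and the citric acid cycle 11 were listed, all at 0 fragments in both deprived libraries, with a median of −3.68 in each. CS, the citrate synthase (71.9 RPM), MDH2, a malate dehydrogenase (44.7 RPM), and ACO1, the cytosolic aconitase (41.1 RPM), were the highest in the control. Of 8 gluconeogenesis genes 2 were listed, G6PC3 (7.54 RPM) and PCK2 (5.95 RPM), with a median of −2.91 in each and 0 fragments in both deprived libraries. All listed genes of these lists were lower in both comparisons, as were 99.9% of all genes tested in each.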
